A study of Drosophila melanogaster with 3 samples.

Results

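The 10 genes described here, rpr, hid, grim, skl, Diap1, Dronc, Dark, Drice, Dcp-1 and Dredd, form the core of apoptosis in Drosophila melanogaster. They were chosen by gene symbol in the Ensembl annotation of the Release 6 genome (dm6), out of 13945 protein-coding genes on the nuclear chromosome arms, and all 10 were found. Binding of Ets21C, a transcription factor of the ETS family, was mapped by chromatin immunoprecipitation with sequencing (ChIP-seq) in 3 biological replicates of 1 group. The animals were whole prepupae, male and female pooled, synchronised at the white prepupa stage, which is the start of metamorphosis. They came from the transgenic strain d.ets6-GFP, which stably expresses Ets21C fused at its C-terminus to enhanced green fluorescent protein (eGFP), and the precipitation used an anti-GFP antibody. The insertion site and the sequence that drives the transgene were not given in the sources used here. Tissues were not separated, so a peak cannot be assigned to dying or surviving cells. There was no second genotype, stage or untagged strain among the samples analysed here, so no condition was compared, and the values below are the positions and heights of called peaks with their spread over 3 replicates.

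In flies, death is switched on by small proteins that bind and disable inhibitors of apoptosis. The genes rpr (reaper), hid (head involution defective), grim and skl (sickle) encode 4 such antagonists. These genes lie in the same region of chromosome arm 3L, with other genes between hid and grim. Diap1 encodes the inhibitor that they target, a ubiquitin ligase that holds caspases in check. Once released, the initiator caspase Dronc is activated on a scaffold made of Dark, the fly relative of Apaf-1, and cleaves the effector caspases Drice and Dcp-1. Dredd is an initiator-type caspase best known for its role in the Imd pathway of innate immunity. At metamorphosis, pulses of the steroid ecdysone lead to the death of larval midgut and salivary gland, and rpr and hid are known to rise in these tissues. ETS factors recognise DNA with a GGAA core.

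The optimal list, which holds the peaks that the authors kept for reproducibility between replicates, had 4505 peaks. It placed 24 of them over the 10 genes with 10 kb on each side or in the 250.691 kb window around hid, grim and rpr, and 16 of the 24 lay in that window. The sequences below are the 201 bp centred on 7 of these summits, shown because they are the 5 highest of the window, the peak nearest to rpr and the highest within Diap1. They were read from the RefSeq Release 6 genome, are written 5′ to 3′ on the plus strand, and carry each GGAA, or its reverse complement TTCC, in capitals. All 4 antagonists and Diap1 are transcribed from the minus strand.
hid promoter, chr3L:18185862-18186062: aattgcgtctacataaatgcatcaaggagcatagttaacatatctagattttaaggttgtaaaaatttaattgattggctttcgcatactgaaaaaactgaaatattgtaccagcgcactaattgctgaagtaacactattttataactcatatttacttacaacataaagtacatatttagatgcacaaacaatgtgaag
5012 bp upstream of hid, chr3L:18190553-18190753: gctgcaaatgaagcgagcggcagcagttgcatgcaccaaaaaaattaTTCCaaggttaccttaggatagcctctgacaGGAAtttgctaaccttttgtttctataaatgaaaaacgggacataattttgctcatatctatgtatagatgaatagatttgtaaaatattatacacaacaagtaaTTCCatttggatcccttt
8889 bp upstream of hid, chr3L:18194430-18194630: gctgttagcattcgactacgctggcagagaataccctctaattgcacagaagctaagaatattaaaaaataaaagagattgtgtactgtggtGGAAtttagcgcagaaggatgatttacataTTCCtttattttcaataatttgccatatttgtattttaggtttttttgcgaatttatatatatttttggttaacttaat
9556 bp upstream of hid, chr3L:18195097-18195297: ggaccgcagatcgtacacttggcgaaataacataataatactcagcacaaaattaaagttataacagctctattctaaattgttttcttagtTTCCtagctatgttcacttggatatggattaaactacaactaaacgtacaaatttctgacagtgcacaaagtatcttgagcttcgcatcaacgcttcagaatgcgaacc
50397 bp upstream of hid, chr3L:18235938-18236138: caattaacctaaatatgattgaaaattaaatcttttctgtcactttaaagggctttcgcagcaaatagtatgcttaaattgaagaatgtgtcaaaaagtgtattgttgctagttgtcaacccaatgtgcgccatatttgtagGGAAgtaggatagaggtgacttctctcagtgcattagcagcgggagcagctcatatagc
7700 bp upstream of rpr, chr3L:18406035-18406235: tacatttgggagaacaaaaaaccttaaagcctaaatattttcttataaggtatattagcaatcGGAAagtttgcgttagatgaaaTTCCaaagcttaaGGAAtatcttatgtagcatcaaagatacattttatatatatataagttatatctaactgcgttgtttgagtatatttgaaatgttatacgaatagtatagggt
Diap1 intron, chr3L:16046029-16046229: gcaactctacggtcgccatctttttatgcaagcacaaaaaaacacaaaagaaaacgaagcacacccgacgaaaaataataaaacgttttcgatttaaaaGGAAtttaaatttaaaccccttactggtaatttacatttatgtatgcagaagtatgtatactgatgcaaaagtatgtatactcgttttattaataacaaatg

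The sequence at the hid promoter summit held no GGAA on either strand, while those 5012 bp upstream of hid and 7700 bp upstream of rpr held 3 each. GGAA was found within 100 bp of 19 of the 24 summits, or 79.2%, and of 12 of the 16 in the window around hid, grim and rpr, or 75%. Among 4482 optimal summits on the nuclear arms the share was 74.1%, and among 19252 start sites of protein-coding genes, cut to the same length, it was 79.2%. The longer ETS words CCGGAAGT and CCGGAAGC were found at 0 of the 24 summits, and either was found at 0.290% of all optimal summits and 0.442% of start sites. GATA, the core of the sites of GATA factors, was found at 20 of the 24, or 83.3%, against 79.3% of optimal summits and 73.4% of start sites. The word GAGAG lay at 3 of the 24, or 12.5%, against 19.8% and 25.0%. TGANTCA, with any base at N, is a looser form of the site of the AP-1 factors Jra and kay, which has C or G there. It lay at 1 of the 24, or 4.17%, against 5.20% and 3.79%. That match, at a peak in a Diap1 intron, read TGAATCA and so was not the AP-1 site itself. CACGTG, TATCGATA and GGTCACACT were found at 0 of the 24. Among all optimal summits they were found at 1.74%, 2.48% and 0.803%, and among start sites at 2.80%, 6.45% and 4.42%. Both strands were searched, GGAA is contained in the longer ETS words, and a match describes letters and does not show that a factor bound there. The GC content within 50 bp of the summit was 29.4% ± 4.78 (SD, n = 16 peaks) in the window around hid, grim and rpr, from 21.8% to 39.6%. It was 32.4% ± 7.67 (SD, n = 4482) over all optimal peaks and 43.7% ± 8.71 (SD, n = 19252) at start sites. Over all 24 described peaks it was 31.1% ± 5.49 (SD, n = 24). Of the 16 peaks, 12 lay below the mean of all optimal peaks, as did 14 of the 24 and 2459 of the 4482 optimal peaks themselves.

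Only 1 of the 10 genes, hid, had an optimal peak within 500 bp of a transcription start site (TSS), a distance called its promoter here. The share among all 13945 protein-coding genes was 15.2%. In the pooled list, called on the joined reads of the 3 replicates and holding 27085 strong and weak peaks, 5 genes (rpr, hid, Diap1, Dronc and Drice) had one, against 36.6% of protein-coding genes. In the whole list of replicate 1 there were 2 (hid and Diap1, background 22.4%), in that of replicate 2 there were 4 (hid, skl, Diap1 and Drice, background 39.6%), and in that of replicate 3 there were 8 (all but grim and skl, background 52.1%). When each replicate was cut to its 4505 highest peaks, its top list, hid alone remained in replicate 1 (background 8.68%), hid and Diap1 in replicate 2 (background 17.4%) and hid alone in replicate 3 (background 18.6%). In the whole lists hid and Diap1 had a promoter peak in each of the 3 replicates, and in the top lists hid alone did. Of all protein-coding genes, 825, or 5.92%, had one in all 3 top lists, and the share for all 3 whole lists was not computed. Diap1 has 5 annotated start sites, where hid has 1, and its calls did not coincide between replicates, as given below. Optimal peaks anywhere in the gene or within 10 kb of it were found for 6 of the 10 genes (rpr, hid, Diap1, Dronc, Drice and Dcp-1), against 56.0% of protein-coding genes. With 10 genes, 1 gene is 10% of the set, and no test was made of these shares.

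**Figure D1:**
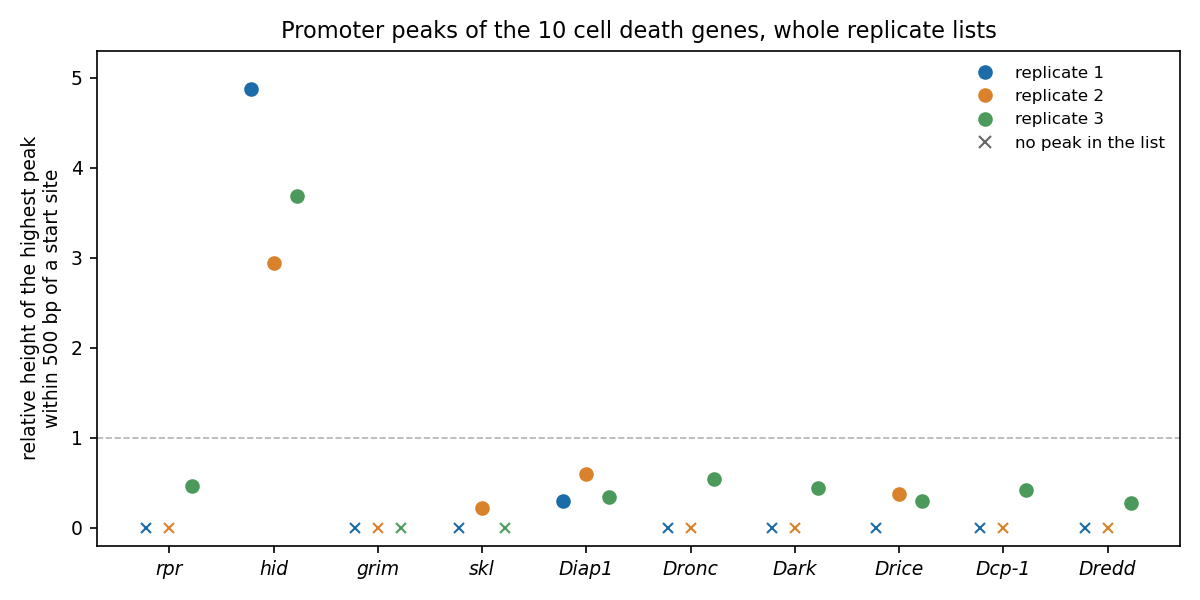
Highest promoter peak of each of the 10 genes in the whole list of each replicate. The vertical axis is relative height, the peak's signal divided by the median signal of the 4505 highest peaks of that replicate, and crosses mark genes with no peak within 500 bp. All 3 points of hid lie between 2.94 and 4.88, and the highest point of any other gene is 0.595 (Diap1, replicate 2).

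Among the antagonists, hid (FBgn0003997, 3L:18167745-18185641) carried the strongest promoter peak. Its summit lay 321 bp upstream of the single annotated TSS, in intergenic sequence, with a signal of 714 and rank 238 of 4505 in the optimal list. The signal was 197 in replicate 1, 185 in replicate 2 and 338 in replicate 3. Signal runs on a different scale in each list, with medians over the top lists of 40.5, 62.7 and 91.6, so heights were divided by those medians. The relative height of the hid promoter peak was then 4.88, 2.94 and 3.69, or 3.84 ± 0.975 (SD, n = 3), and its rank was 205, 343 and 215. Thus in every replicate it stood well above the median of the top list.

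Upstream of hid, 5 more optimal peaks followed within 10 kb of the gene, all intergenic. At 5012 bp the signal was 650 (rank 290) and the relative heights were 3.90, 2.90 and 3.41 in replicates 1, 2 and 3, or 3.40 ± 0.500 (SD, n = 3). At 8889 bp the signal was 526 (rank 474) and the relative heights were 3.97, 2.12 and 2.61, or 2.90 ± 0.957 (SD, n = 3). At 9556 bp the signal was 752 (rank 213) and the relative heights were 4.41, 3.00 and 4.08, or 3.83 ± 0.735 (SD, n = 3). These 3 peaks and the promoter peak overlapped in their replicate ranges, and replicate 1 gave the highest and replicate 2 the lowest value of each. A pair of lower peaks lay between them. At 7339 bp the relative heights were 1.38, 1.08 and 0.752, or 1.07 ± 0.312 (SD, n = 3), and at 8197 bp they were 1.20, 0.880 and 0.514, or 0.864 ± 0.342 (SD, n = 3). In this lower pair replicate 3 was the lowest, and neither reached the values of the 4 high peaks in any replicate. The start site nearest to the peaks at 7339, 8197, 8889 and 9556 bp was not that of hid. It was that of the long noncoding RNA gene lncRNA:CR45234, and the peaks lay 3192, 2334, 1642 and 975 bp upstream of it. Which gene these peaks act on, if any, was not tested. With 6 optimal peaks in the 10 kb before its TSS, hid was 1 of 11 protein-coding genes (0.0789% of 13945) with as many there, and 1.86% had as many over the gene and both flanks. No optimal peak lay within the 17897 bp of hid itself or in the 10 kb beyond its 3′ end.

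The peaks went on beyond 10 kb into the gene-poor sequence between hid and grim. From the TSS of hid to that of grim, 118.776 kb, there were 15 optimal peaks, or 1 per 7.92 kb, where the nuclear arms had 1 per 29.9 kb. The median distance between neighbours was 3.70 kb there and 9.71 kb over the genome. The highest of them, and of the whole window in each of the 3 replicates, lay 50397 bp upstream of hid and 1278 bp upstream of the long noncoding RNA gene lncRNA:CR45937. Its optimal signal was 868, rank 156, and its signal in replicates 1, 2 and 3 was 230, 226 and 419. The relative heights were 5.69, 3.60 and 4.58, or 4.62 ± 1.05 (SD, n = 3). That mean is above the 3.84 of the hid promoter, and the order of these 2 peaks was the same in each replicate, although the ranges over replicates overlap. The gene that this distal peak acts on, if any, was not tested here.

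The other peaks between 10 kb upstream of hid and grim were lower. At 26739 bp the relative height was 1.45 ± 0.436 (SD, n = 3) and at 30208 bp it was 1.55 ± 0.344 (SD, n = 3). The remaining 6, at 13335, 46782, 50982, 55552, 90533 and 95739 bp, had means from 0.657 to 0.979. The pair at 26739 and 30208 bp lay above all 6 of these in mean, although the replicate values of the 2 sets overlap. The SD reached 0.533 at 50982 bp, where replicate 1 gave 1.43, replicate 2 gave 0.618 and replicate 3 gave 0.432. Without replicate 1 the mean there was 0.525 in place of 0.828. The peak at 95739 bp was the lowest in mean of the 15, with 0.657 ± 0.0997 (SD, n = 3).

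**Figure D2:**
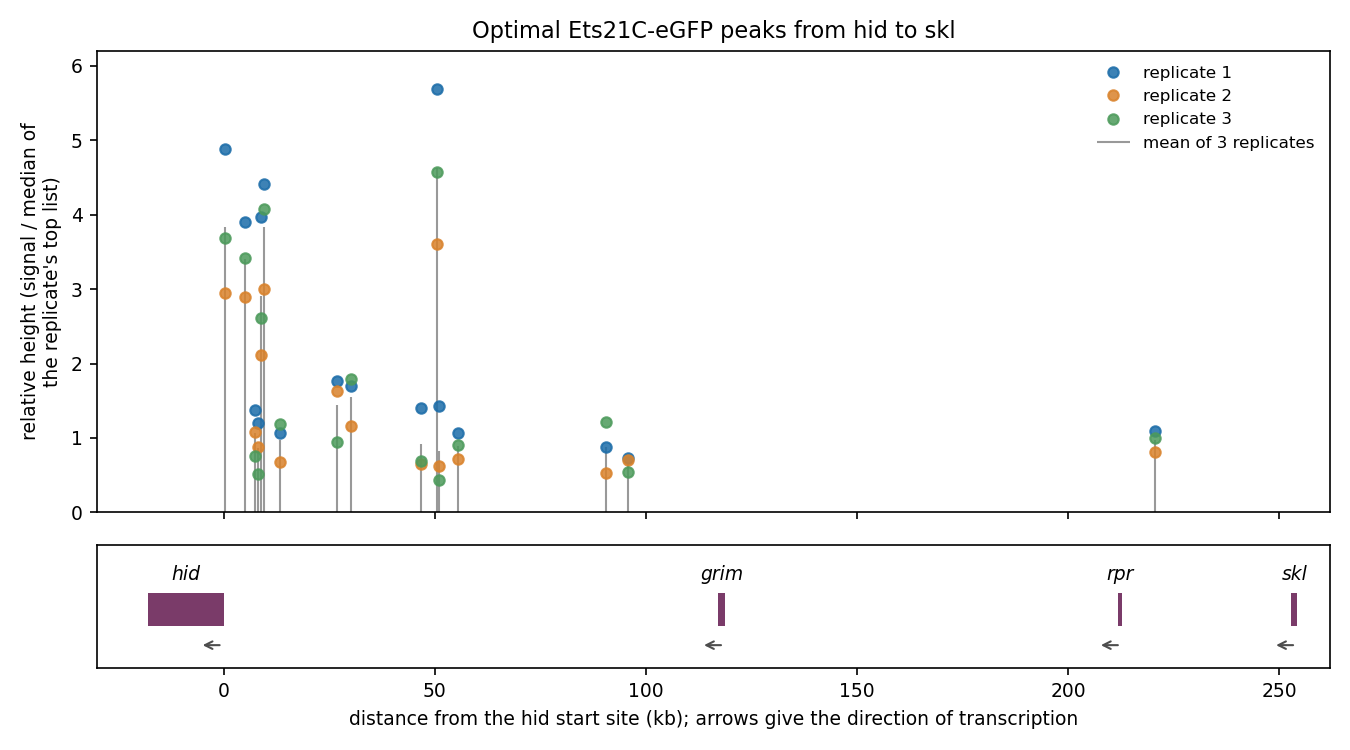
Optimal peaks from hid to skl. The horizontal axis is the distance from the hid start site in kb, the vertical axis is relative height, points are the 3 replicates, grey lines are their means, and boxes below are the genes with arrows for the direction of transcription. The 15 peaks between hid and grim include all 5 with a mean of 2.90 or more, no peak lies between grim and rpr, and 1 lies upstream of rpr.

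After 95739 bp the optimal peaks stopped. The next one lay 124.755 kb further on, past both grim and the rpr TSS, and of 4476 neighbouring pairs of optimal peaks 184, or 4.11%, were as far apart. Between the start sites of grim and rpr, 94.018 kb, there were 0 optimal peaks. The pooled list held 21 peaks there, or 2.23 per 10 kb, against 2.02 per 10 kb over the nuclear arms and 4.88 per 10 kb from hid to grim, where it held 58. The highest of the 21 had a signal of 99.8, rank 4980, and the lowest signal in the optimal list was 109. The stretch was therefore not empty of weak calls, and its density of them was close to the genome's.

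The gene grim (FBgn0015946, 3L:18302719-18304417) had no promoter peak in any of the 5 lists and no optimal peak in the 10 kb on either side. Its nearest peak of the pooled list lay within the gene, 992 bp downstream of its TSS and 6 bp upstream of that of the antisense gene asRNA:CR45974, with a signal of 32.4 and rank 21963. Only 1 replicate, the first, had a peak inside grim, 1111 bp downstream of the TSS at rank 25332. A weak peak upstream of grim was called in each list of a replicate, 6536 bp upstream at rank 22743 in replicate 1, 6530 bp at rank 16570 in replicate 2 and 6443 bp at rank 25966 in replicate 3. The highest call of replicate 2 in these flanks lay nearer, 2945 bp upstream at a relative height of 0.322 and rank 10142. Replicate 1 had one 2857 bp upstream at rank 27715. The highest call of replicate 1 lay 3622 bp downstream of the TSS, at the promoter of CG13700, at a relative height of 0.445 and rank 10085. None of these calls was in a top list of 4505 peaks.

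The gene rpr (FBgn0011706, 3L:18397535-18398435) had 1 optimal peak in its flanks, 7700 bp upstream of the TSS in intergenic sequence. The optimal signal was 188, rank 2319, close to the list's median of 192. The signal was 44.3, 51.1 and 91.6 in replicates 1, 2 and 3, and the relative height was 1.10, 0.815 and 1.00, or 0.970 ± 0.143 (SD, n = 3). The 3 replicates thus placed it near the median of their top lists. At the rpr promoter itself there were weak calls only. The pooled list had a peak 32 bp upstream of the TSS with a signal of 37.4 and rank 16932, and replicate 3 had one 48 bp upstream at a relative height of 0.460 and rank 6735. Replicates 1 and 2 had none within 500 bp.

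The gene skl (FBgn0036786, 3L:18438561-18439942), whose product resembles those of its neighbours, had no optimal peak in its flanks. Replicate 2 alone called a promoter peak, 282 bp downstream of the TSS, at a relative height of 0.222 and rank 20793. Peaks of any height within the gene and 10 kb numbered 9 in replicate 1, 6 in replicate 2 and 1 in replicate 3. The highest by relative height was in replicate 1, 2215 bp upstream of the TSS, at a relative height of 0.533 and rank 6167, outside the top list. Of the 41.507 kb between the start sites of rpr and skl, only the peak upstream of rpr was in the optimal list.

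The 16 peaks of the window around hid, grim and rpr were found in all 3 replicates, as were 2998 of the 4482 optimal peaks on the nuclear arms. Their replicate summits lay within 14 to 111 bp of each other, with a median spread of 50 bp. Only summits within 100 bp of the optimal one were matched, and the list was kept for reproducibility, so this closeness was partly set in advance. The spread over all optimal peaks was not computed. Of the 16 peaks, 12 were in all 3 top lists and 4 were in 2 of them. All 16 were in the top list of replicate 1, 15 in that of replicate 2 and 13 in that of replicate 3. Among all optimal peaks on the nuclear arms these shares were 65.4%, 80.1% and 77.9%. Replicate 1 gave the highest relative height at 13 of the 16, or 81.3%, and replicate 3 at the other 3. Replicate 1 was also the highest at 67.0% of the 2998 optimal peaks found in all replicates, and the cause of its high values was not tested.

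The 8 optimal peaks at the other genes differed in this respect. Of these, 3 were in the top list of replicate 1 and 7 in each of the other 2 lists. Taking all 24 peaks, 15 were in 3 top lists, 7 in 2 and 2 in 1. The 62.5% in all 3 stands beside 45.7% of all optimal peaks. By place, 16 of the 24 peaks were intergenic, 3 lay in introns of Diap1 and 5 were promoter peaks, 1 of hid and 4 of other genes than the 10. All 4 promoter peaks of other genes lacked a peak within 100 bp in replicate 1. Over the genome, 49.6% of the 1807 optimal peaks within 500 bp of a TSS were in the top list of replicate 1, against 81.6% and 81.8% in replicates 2 and 3. For the 2675 optimal peaks elsewhere the shares were 76%, 79.1% and 75.2%. The 4 peaks fall in the class of which replicate 1 held fewer in general. The hid promoter peak falls in the same class and was in the top list of replicate 1, at a relative height of 4.88. The cause was not tested.

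**Figure D3:**
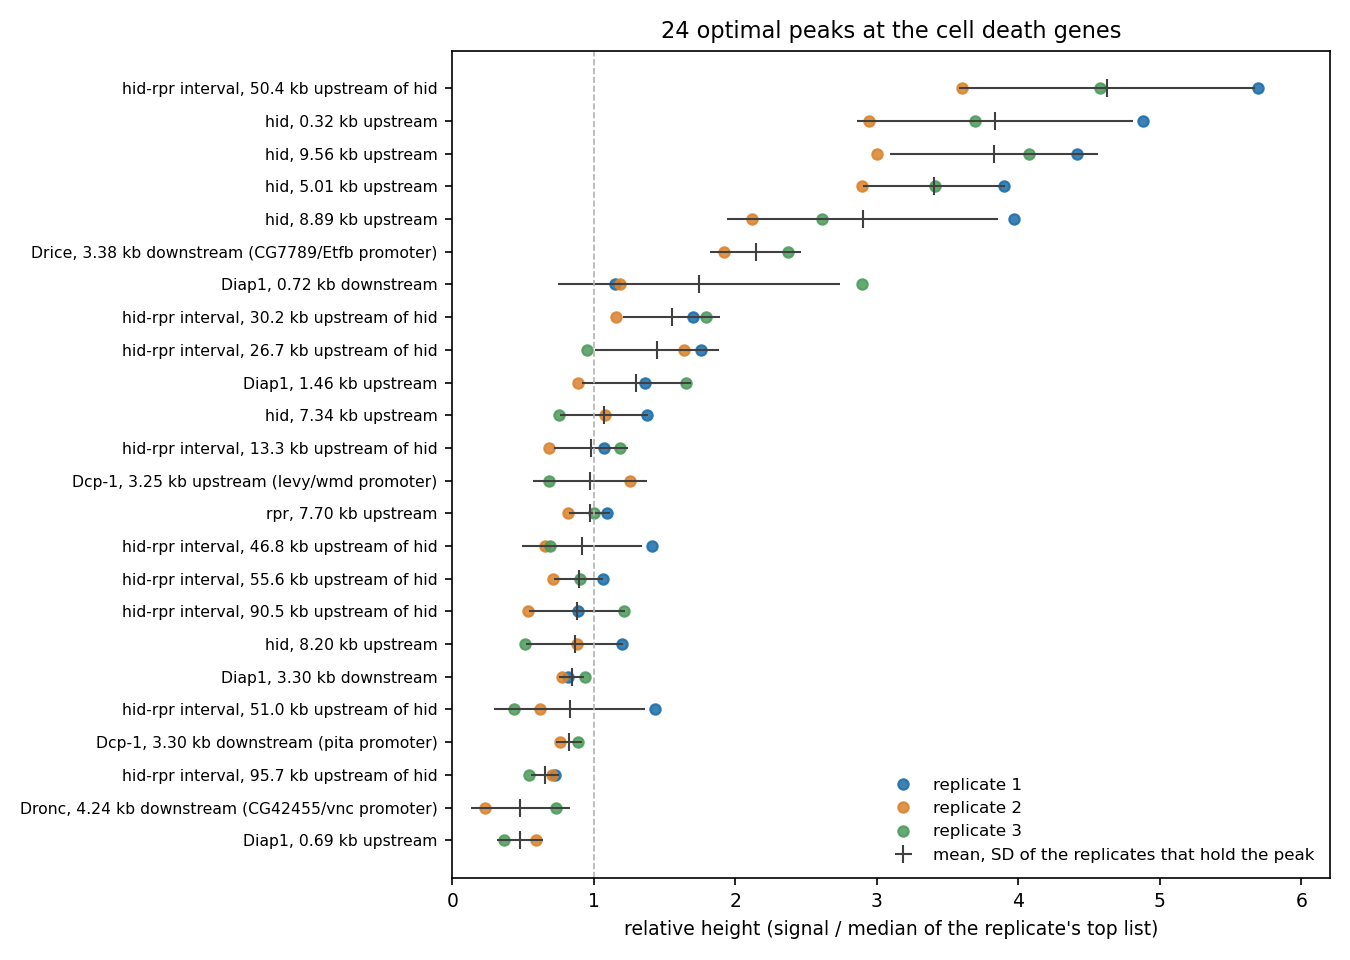
The 24 optimal peaks ordered by mean relative height. The horizontal axis is relative height, points are replicates, the vertical tick and horizontal line are the mean and SD of the replicates that hold the peak, and the dashed line at 1 marks the median of a top list. Of the 7 peaks with the highest means, 5 lie 321 to 50397 bp upstream of hid, 1 lies at the Etfb and CG7789 promoter near Drice and 1 lies in Diap1.

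Diap1 (FBgn0260635, 3L:16038410-16051034), the inhibitor that the antagonists disable, has 5 annotated start sites and had 4 optimal peaks over the gene and its flanks, and 7.27% of protein-coding genes had as many. None was within 500 bp of a start site. The highest lay in an intron, 717 bp downstream of a start site, with a signal of 392 and rank 779. Its relative height was 1.15 in replicate 1, 1.18 in replicate 2 and 2.89 in replicate 3, or 1.74 ± 0.998 (SD, n = 3). Replicate 3 was the highest, and without it the mean was 1.17. Replicates 1 and 2 each called a pair of peaks here, the other lying 864 bp downstream of the start site at a relative height of 1.14 in replicate 1 and 850 bp downstream at 1.54 in replicate 2.

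A second intron peak of Diap1 lay 1457 bp upstream of the same start site, with a signal of 258 and rank 1485. Its relative heights were 1.36, 0.889 and 1.65, or 1.30 ± 0.383 (SD, n = 3). The peak beyond the 3′ end of the gene, 3299 bp downstream of the last start site, gave 0.818, 0.772 and 0.939, or 0.843 ± 0.0866 (SD, n = 3), and was the most even of the 4. The third intron peak, 693 bp upstream of a start site, had a signal of 131 and was found in replicate 2 (0.593) and replicate 3 (0.364) but not within 100 bp in replicate 1. Just beyond that distance replicate 1 had a peak in its top list, 549 bp upstream of the start site at a relative height of 0.923 and rank 2484, and replicate 2 had another, 544 bp upstream at 0.746. When summits within 200 bp were taken as the same, the mean of this peak rose from 0.478 to 0.678. Replicate 3 was the highest at the 3 Diap1 peaks matched within 100 bp in all replicates, and at this intron peak it was the lowest.

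At the Diap1 start sites themselves the calls were weak and did not coincide. The highest promoter peak had a relative height of 0.292 in replicate 1, 382 bp upstream of a start site at rank 28623. In replicate 2 it was 0.595, 460 bp downstream of a start site at rank 4375, and it also lay within 500 bp of the antisense gene asRNA:CR45889. In replicate 3 there were 5 promoter peaks, the highest at 0.346, 55 bp downstream of a start site at rank 9383. The replicate 2 call was the only one in a top list.

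**Figure D4:**
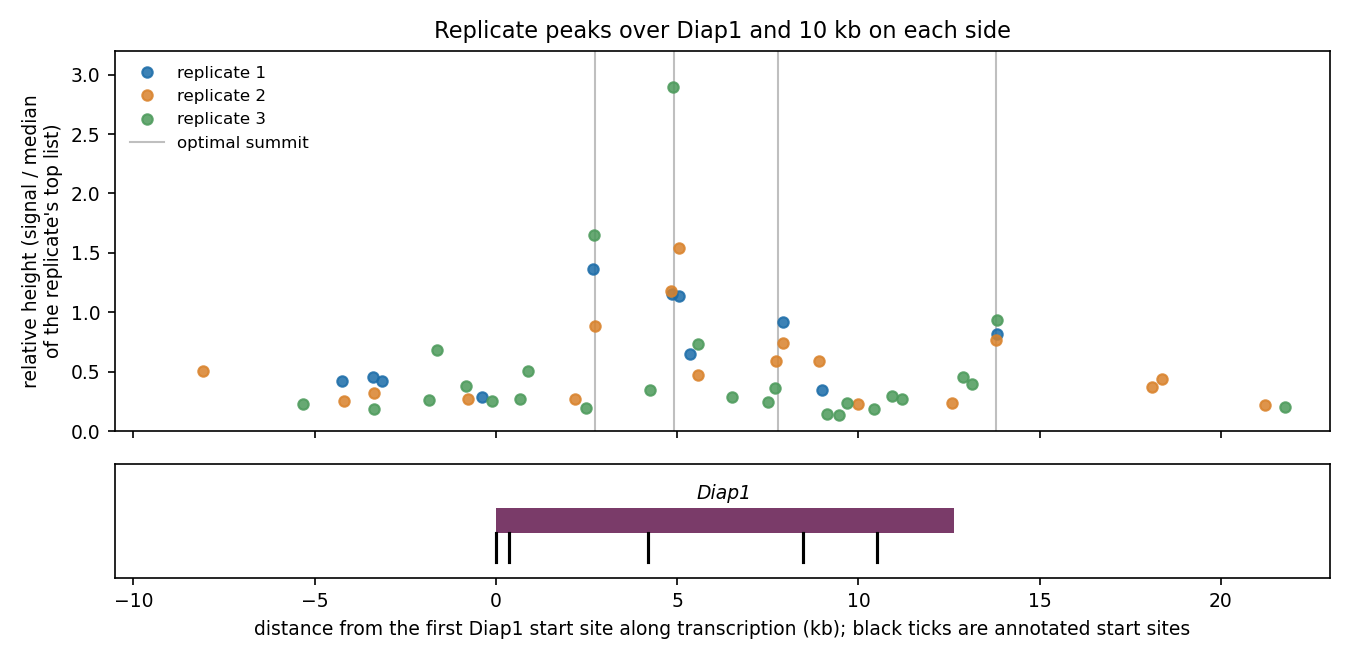
Peaks of the 3 whole replicate lists over Diap1 and 10 kb on each side. The horizontal axis is the distance in kb from the first start site along the direction of transcription, the vertical axis is relative height, grey lines are the 4 optimal summits, and black ticks below the gene are its 5 start sites. The highest point, 2.89 in replicate 3, lies at the optimal peak 717 bp downstream of a start site.

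The caspases and their scaffold had no optimal promoter peak. Dronc (FBgn0026404, 3L:9968479-9971002), the initiator caspase, had a promoter peak in replicate 3 alone among the replicates, 45 bp upstream of its TSS at a relative height of 0.541 and rank 5454. It lay also within 500 bp of the start of CG6685. In the pooled list the signal there was 53.2, rank 9930. The optimal peak in its flank, 4243 bp downstream of the TSS, was a promoter peak of CG42455 and vnc with a signal of 114, near the lowest of the list. It stood at 0.232 in replicate 2 and 0.730 in replicate 3, and of these only the replicate 3 peak was in a top list. Without replicate 2 the mean of 0.481 became 0.730, and without replicate 3 it became 0.232. Beyond the 100 bp within which summits were taken as the same, replicate 1 had a peak at 3L:9972548 (0.601, rank 4714) and replicate 2 a higher one at 3L:9972572 (0.599, rank 4339, in its top list). With summits within 200 bp the mean was 0.643.

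Drice (FBgn0019972, 3R:29799658-29801584), an effector caspase, had weak promoter peaks in replicates 2 and 3. The highest stood at a relative height of 0.369, 246 bp upstream of the TSS, in replicate 2 and at 0.296, 5 bp upstream, in replicate 3, while replicate 1 had none. These summits lay within 500 bp of the start of Rnb as well. In the flank, 3380 bp downstream of the TSS, the promoter of Etfb and CG7789 held an optimal peak with a signal of 435 and rank 656. Its relative height was 1.92 in replicate 2 and 2.37 in replicate 3, or 2.14 ± 0.321 (SD, n = 2), and no peak lay there in replicate 1. This was the highest optimal peak near any of the caspase genes, and it was a promoter peak of its neighbours.

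Dcp-1 (FBgn0010501, 2R:23551313-23553547), the other effector caspase, had a pair of optimal peaks in its flanks. One lay 3245 bp upstream at the promoter of levy and wmd, where the relative height was 1.26 in replicate 2 and 0.685 in replicate 3. The other lay 3300 bp downstream at the promoter of pita, which encodes a zinc-finger DNA-binding protein, and gave 0.762 and 0.889. Replicate 1 had neither. At the Dcp-1 promoter a peak was called in replicate 3 only, 259 bp downstream of the TSS at a relative height of 0.417 and rank 7514, and that summit also fell within 500 bp of a start site of pita.

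Dark (FBgn0263864, 2R:17020027-17026703) had no optimal or pooled peak in its gene and flanks. Replicate 3 had 9 peaks there, replicate 2 had 1 and replicate 1 had none. The promoter peak of replicate 3 lay 335 bp downstream of the TSS at a relative height of 0.444 and rank 6992. The strongest of the 9, at 2.16 and rank 650, lay 6970 bp downstream at the start sites of RhoGEF2, an activator of the GTPase Rho1, and of asRNA:CR44390. Dredd (FBgn0020381, X:633622-635545) had 9 peaks in replicate 3 and none in any of the other 4 lists. Its promoter peak stood at 0.277, 294 bp upstream of the TSS at rank 11935, and lay within 500 bp of the start of su(sable), an RNA-binding protein gene. For Dark and Dredd alike, all calls at the promoter came from a single replicate.

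Other genes that act in the same process were described in 3 lists. Among 23 further genes of the death machinery, 5 had an optimal promoter peak, or 21.7%, beside the 15.2% of all protein-coding genes, and 2 of them had one in all 3 top lists, where the share of all protein-coding genes was 5.92% (825 of 13945). They were led by Cyt-c-d, a cytochrome c gene needed for caspase activity in spermatids, with a signal of 626. Acn followed at 365, then eIF3m, also known as Tango7, at 181, and HtrA2, a mitochondrial protease, at 159. AIF, a mitochondrial protein, and Bruce, an inhibitor of apoptosis, had none. Among 12 genes of engulfment, by which dead cells are cleared, 3 had an optimal promoter peak, or 25%: mbc at 527, prtp at 447 and ced-6 at 213. Of these, 2 had one in all 3 top lists, or 16.7% of the 12, beside 5.92% of all protein-coding genes. Ced-12 and crq, which encodes a receptor for dying cells, had no optimal promoter peak.

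Among 20 genes of the steroid, p53 and JNK inputs to cell death, 8 had an optimal promoter peak, or 40%, beside 15.2% of all protein-coding genes. Of these, 3 had one in all 3 top lists, or 15% of the 20, beside 5.92% of all protein-coding genes. The highest were at nuclear receptor and ETS genes of the ecdysone response, with signals of 633 at Hr3, 481 at Eip75B, 287 at usp and 260 at Eip74EF. The ecdysone-response gene br and bsk, which encodes the kinase JNK, had none. Optimal peaks over the gene and 10 kb were found for 17 of these 20 genes, beside 7806 of all 13945 or 56.0%, with a median of 3, where the median over all protein-coding genes and over the 10 death genes was 1. No test was made of these shares, since the lists were chosen with earlier results of these data known. The lists were not matched for gene length or number of start sites, and counts over such windows can rise with both. Promoter peaks of the listed genes that also lay at the start site of a neighbouring gene were not told apart.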

How the data were processed

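ChIP-seq of Ets21C-eGFP was done on whole white prepupae in 3 biological replicates; per the labels, chromatin was sonicated to 200-800 bp. Per the notes deposited with the files, the authors called peaks in each replicate against a control alignment, called a pooled list on all replicates, and derived the optimal list by irreproducible discovery rate. The aligner, peak caller and settings were not given in the sources used here. Each peak's height is the signal that the authors deposited, on its own scale in each list, and the optimal peaks carry the pooled signals. No counts were given, so depth is unknown and no counting interval can be set. Replicate lists 1 and 3 hold 30000 peaks each, and only Release 6 (dm6) lists were used.

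Summits were compared with start sites of Ensembl release 115, and all 10 genes have the same coordinates in RefSeq. Each replicate peak's signal was divided by the median of its list's top 4505. Summits within 100 bp were taken as the same peak. No test was run, as there is 1 group. The genes and lists were chosen with earlier results of these data known. All 10 genes are named. Of each further list, at most 4 genes are named by the height of the promoter peak and at most 2 that lack one, in alphabetical order, as is any other gene whose promoter holds a described peak. The counting was tested on simulated data. Python 3.11.15, pandas 2.3.3, numpy 2.4.6 and matplotlib 3.10.9 were used.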

Additional observations from a re-analysis of the deposited data

How the results depend on the processing

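The gene count and peak counts depend on the windows and the list. With promoters of 250 bp, 0 of the 10 genes had an optimal peak, and with 1000 bp 2 had one, against 1 as reported. The shares of all protein-coding genes at those distances were not computed, so these counts cannot be read as particular to the 10 genes. In the pooled list 5 of the 10 had a peak within 500 bp, where the share of all protein-coding genes was 36.6%. The 15 optimal peaks over genes and 10 kb flanks became 9 with 5 kb, 26 with 20 kb, 8 among the higher-signal part of the optimal list and 62 in the pooled list. The 16 around hid, grim and rpr became 8 and 91 in those last 2 lists. The 15 peaks in all 3 top lists became 7 with top lists of 2000 peaks. The median relative height of 0.975 became 0.568 with those and 1.74 with top lists of 10000. Counting only optimal peaks in both top lists that remained when a replicate was left out gave 1 gene, from 9 to 12 peaks over genes and flanks (9 without replicate 2), and from 12 to 15 around hid, grim and rpr. The count in all top lists was 16 to 18 and the median height 0.924 to 1.08. Leaving out a replicate moved the mean height of 2 single peaks by over 1.5 times, at CG42455 and vnc near Dronc and 50982 bp upstream of hid, as given above. Other settings kept the counts within 1.5 times. The share of the 10 genes with a promoter peak stood below that of all protein-coding genes in the optimal list, 10% against 15.2%. In the pooled list it stood above, 50% against 36.6%, and neither difference was tested. No paired analysis was possible because there is 1 group and no comparison between groups. Depth and the control signal at these sites are unknown here, so a missing peak is a missing call and does not show absence of binding.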
